A study of Rattus norvegicus with 12 samples.

Results

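Cse1l and Med16 are a pair of genes for proteins that work in or around the cell nucleus, and each was read by 1 probe on kidney arrays of 12 male rats. They were chosen by accession of the transcript each probe was designed to: probe A_44_P1017335 for rat Cse1l (gene ID 362273) and probe A_44_P291060 for rat Med16 (gene ID 299607). They are 2 of 62 probes with an mRNA accession, and 2 of the 35 that could be named and were bright enough to test (34 genes), on arrays that otherwise carry 14145 probes for circular RNAs (circRNAs). The rats came from 4 inbred strains with 3 rats each: the Dahl salt-sensitive rat (S), the Dahl salt-resistant rat (R), the spontaneously hypertensive rat (SHR) and the Wistar Kyoto rat (WKY). S and SHR are models of hypertension, and R and WKY are their usual normotensive counterparts. All 12 were weaned at 28 to 30 days, fed a diet with 0.3% NaCl and killed at 57 days of age, so that no group had a high-salt diet. Total kidney RNA was digested with RNase R, an exonuclease that removes linear RNA, before random-primed Cy3 labelling. An mRNA probe on these arrays therefore reads what was left of RNA holding its sequence, and linear and circular molecules cannot be told apart by it.

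Cse1l encodes the export receptor that carries importin alpha out of the nucleus together with Ran bound to GTP, so that importin alpha can bring in the next cargo. This recycling keeps up the import of proteins with a classical nuclear localisation signal. Med16 encodes a subunit of the tail of Mediator, the large complex that links transcription factors at enhancers to RNA polymerase II at the promoter. Both are widely expressed genes of basic cell function and are not markers of any kidney cell type.

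In RefSeq (build GRCr8) rat Cse1l lies on the plus strand of chromosome 3, from 176060183 to 176097909, and Med16 on the plus strand of chromosome 7, from 10449273 to 10461797. The files used here give neither the probe sequences nor their places within the transcripts. To show the DNA upstream of each gene, the first 195 bases of its RefSeq promoter window are given, which end just before the first annotated base of Cse1l (chr3:176059988-176060182) and upstream of that of Med16 (chr7:10449049-10449243). They run 5′ to 3′ on the plus strand, with matches to TGACGTCA (the cAMP response element) and to CCAAT (the CCAAT box), on either strand, in capitals.
Cse1l: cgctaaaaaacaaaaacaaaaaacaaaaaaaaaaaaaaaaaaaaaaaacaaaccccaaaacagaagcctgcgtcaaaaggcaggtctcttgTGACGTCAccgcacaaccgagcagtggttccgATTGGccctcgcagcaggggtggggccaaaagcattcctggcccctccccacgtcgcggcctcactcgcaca
Med16: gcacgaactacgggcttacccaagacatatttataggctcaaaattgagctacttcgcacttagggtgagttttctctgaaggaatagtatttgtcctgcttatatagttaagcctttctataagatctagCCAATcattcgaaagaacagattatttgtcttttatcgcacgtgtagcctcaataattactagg
The Cse1l stretch held TGACGTCA 1 time, a match found in 0.869% of 33469 rat promoter windows of this length, and CCAAT on its other strand. Med16 held CCAAT on the printed strand, and 28.1% of the windows held CCAAT on either strand. GGGCGG (the GC box) was in neither, against 23.3% of windows, and TATAAA (the TATA box) was in Med16 on the other strand, against 9.76%. The G and C content was 49.7% for Cse1l and 37.9% for Med16, with a median of 50.8% over all windows. These letter matches are a description of the sequence and say nothing about binding in these kidneys.

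Levels are the mean log2 signal of a probe's 10 spots minus the 75th percentile of the circRNA probes on the same array, so negative values lie below that percentile and a difference of 1 is 2-fold. The 75th percentile lay at 6.22 log2 units on S rat 1, the dimmest array, and at 7.02 to 8.15 on the other arrays. SHR rat 2 also stood apart: the 33 other tested mRNA probes had a median level of -1.90 on it, against -0.78 and -1.05 on SHR rats 1 and 3. That median was -2.02 to -1.72 in S, -1.87 to -1.65 in R and -1.27 to -0.39 in WKY. The arrays were handled here as 2 batches by their recorded scan date, and slide is used below as the name of such a batch only. WKY rat 3 shared slide 2 with the 3 SHR arrays, and every other array belonged to slide 1. Of 20 kidney cell markers 0 had a named probe among the mRNA probes, so the tissue label could not be checked against them.

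Cse1l was high in WKY, low in R and S, and split within SHR. In WKY the level was -1.35 in rat 1, 0.26 in rat 2 and 0.83 in rat 3. In SHR it was 0.53 in rat 1 and -0.11 in rat 3, but -3.66 in rat 2. In R it was -3.77, -4.05 and -3.25 in rats 1, 2 and 3. SHR rat 2 thus lay within the range of R, and all WKY rats lay above all R and S rats.

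In S the Cse1l level was -3.73 in rat 2 and -5.03 and -5.33 in rats 1 and 3. On the arrays of S rats 1 and 3, 0 of 10 Cse1l spots were well above background, while all 10 were on each of the other 10 arrays. The median raw spot brightness of Cse1l was 40.2 on S rat 1 and 40 on S rat 3, against 36.5 and 33 for the 77 negative control spots of those arrays. It was 59.2 on SHR rat 2, 53 to 66.8 on the R arrays and 116 to 446 on the WKY arrays, and negative controls had medians of 33 to 40 over all 12 arrays. The 2 lowest S values are therefore close to the background and bound the Cse1l level from above only.

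**Figure D1:**
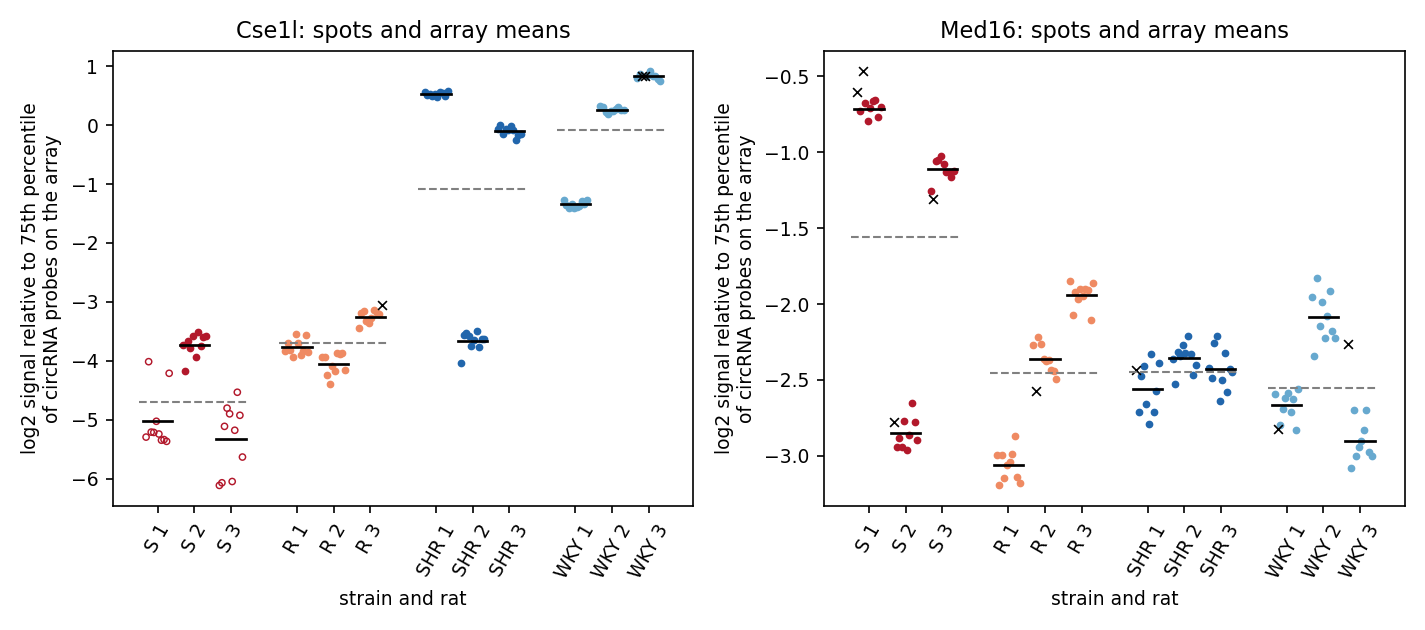
Cse1l (left) and Med16 (right) in 12 rats. Each point is 1 spot as log2 signal relative to the array's 75th percentile of circRNA probes, black bars are array means, dashed lines are strain means, open points mark arrays with 0 of 10 spots well above background and crosses mark spots with an outlier flag, which were left out. The spots of an array lie close together except for Cse1l on S rats 1 and 3, and the Cse1l level of SHR rat 2 (-3.66) sits far from SHR rats 1 and 3 (0.53 and -0.11).

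**Figure D2:**
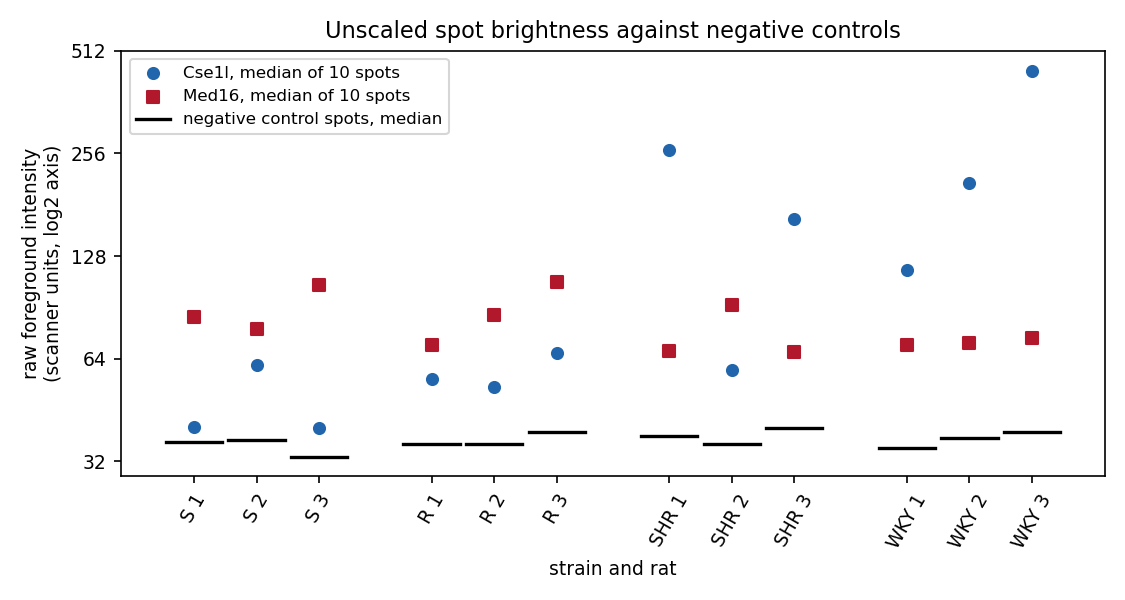
Raw foreground intensity before any scaling (scanner units, log2 axis), as the median of 10 spots for each probe on each array, with the median of 77 negative control spots as a black bar. Cse1l on S rats 1 and 3 (40.2 and 40) lies just above the negative controls (36.5 and 33), while Med16 is above them on all 12 arrays.

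The strain means of Cse1l were highest in WKY, then SHR, with R and S lowest. They were -0.087 ± 1.13 (SD, n = 3) in WKY, -1.08 ± 2.26 in SHR, -3.69 ± 0.41 in R and -4.70 ± 0.85 in S. The place of S below R rests on the S values close to background: with values under each array's detection limit set to that limit, a setting added after seeing the data, S was at -3.64 and R at -3.69, and with normexp background correction S was at -1.65 and R at -1.98. On the 10 arrays with spots above background Cse1l ran from -4.05 in R rat 2 to 0.83 in WKY rat 3. Neighbouring strains did not pass the test: the log2 difference of SHR from WKY was -0.99 (SE 0.95, limma adjusted p = 0.775), that of R from SHR -2.61 (SE 0.95, adjusted p = 0.0907) and that of S from R -1.01 (SE 0.95, adjusted p = 0.725). Without SHR rat 2 the difference of R from SHR was -3.90 (adjusted p = 0.000613), and that of SHR from WKY turned to 0.30 (adjusted p = 0.990). R and SHR shared no slide, and a fit that held slide constant gave -1.24 for R from SHR (SE 1.72, adjusted p = 0.785) and -1.91 for SHR from WKY (SE 1.35, adjusted p = 0.781). In R against SHR limma called 0 of the 35 mRNA probes (0%), with 16 at an unadjusted p under 0.05, and 21 without SHR rat 2. In kidney RNA, fewer cells with Cse1l RNA, less Cse1l RNA per cell and less RNA left after RNase R cannot be told apart.

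Over all 4 strains, an exact permutation test over all 369600 ways to assign 12 arrays to the strains gave p = 0.0187 for the F statistic of Cse1l (Benjamini-Hochberg 0.0281 over the 3 such tests made), and the smallest p it can give is 6.49e-05. Limma's moderated F gave an adjusted p of 0.0101, and 57.1% of the 35 tested mRNA probes passed it. With normexp the exact p was 0.0730. The permutation test does not hold slide constant. The spread between spots of an array was small beside the spread between rats: on the 10 arrays where Cse1l was above background the SD over spots was 0.031 to 0.20 log2 units, against a pooled SD between rats of a strain of 1.35.

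S against R sets the salt-sensitive strain beside its resistant counterpart, and Cse1l did not pass, with a log2 difference of -1.01 and a 95% interval of -3.08 to 1.06. S rat 2 (-3.73) lay inside the R range. SHR against WKY sets the spontaneously hypertensive strain beside its counterpart, and Cse1l did not pass here either, with an interval of -3.06 to 1.08. In both comparisons 0 of the 35 mRNA probes were called by limma (0%), and 2 and 0 had an unadjusted p under 0.05. Without S rat 2, 1 probe was called in S against R. S against R was 0.33 (adjusted p = 0.805) with normexp, and 0.051 (adjusted p = 0.996) at the detection limit.

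Averaged over both pairs, hypertensive minus normotensive strains gave -0.999 for Cse1l (SE 0.67, limma adjusted p = 0.568). The value was -0.354 without SHR rat 2, -0.471 at the detection limit and -0.110 with normexp (adjusted p of 0.834, 0.737 and 0.972). Subtracting the SHR minus WKY difference from that of S minus R gave -0.014 (SE 1.35, adjusted p = 0.995). Its interval, -2.94 to 2.91, leaves room for large differences of either sign. In both of these comparisons limma called 0% of the mRNA probes, with 0 and 1 at an unadjusted p under 0.05.

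The comparisons across the pairs gave the large Cse1l differences. S was lower than SHR by a log2 difference of -3.62 (SE 0.95, limma adjusted p = 0.0194), a size that rests in part on S rats 1 and 3 close to background, and the strains did not overlap, although S rat 2 (-3.73) and SHR rat 2 (-3.66) nearly touched. Of the 35 mRNA probes 40.0% were called lower in S, 2.86% higher, and 31.4% had no overlap. The median difference of the 35 was -1.53. S and SHR shared no slide, and a fit that held slide constant gave -2.25 (SE 1.72, adjusted p = 0.563). The call was also lost without S rat 1 (-3.45, adjusted p = 0.0921), S rat 3 (-3.30, adjusted p = 0.0752), SHR rat 1 (-2.81, adjusted p = 0.1005) or SHR rat 3 (-3.13, adjusted p = 0.0838), with normexp (-1.09, adjusted p = 0.269) and at the detection limit (-2.56, adjusted p = 0.0626). Without SHR rat 2 it was -4.91 (adjusted p = 0.000129). The count of 15 called probes was 1 without S rat 1, SHR rat 1 or SHR rat 3, 2 without S rat 3, 9 without R rat 1 and 27 without SHR rat 2.

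R was lower than WKY as well, with a log2 difference of -3.60 for Cse1l (SE 0.95, limma adjusted p = 0.0225), or 12.1-fold. All 3 R rats, at -4.05 to -3.25, lay below all 3 WKY rats, at -1.35 to 0.83. Here 42.9% of the mRNA probes were called lower in R and 2.86% higher, 74.3% had no overlap, and the median difference was -1.56. On slide 1 alone, with R and WKY rats 1 and 2, Cse1l was also lower in R, at -3.15 (adjusted p = 0.00523). With slide as a block in all arrays the value was also -3.15, with an adjusted p of 0.0848. The call was lost without R rat 1 (-3.56, adjusted p = 0.0551), R rat 2 (-3.42, adjusted p = 0.0603), WKY rat 2 (-3.43, adjusted p = 0.0986) or WKY rat 3 (-3.15, adjusted p = 0.0848), and when the circRNA probes were fitted and adjusted with the mRNA probes (adjusted p = 0.0645). The count of 16 called probes was 2 without R rat 1, 0 without R rat 2, 10 without R rat 3, 2 without WKY rat 2 and 0 without WKY rat 3. With normexp, Cse1l was -1.98 (adjusted p = 0.0271).

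S was lower than WKY in Cse1l by a log2 difference of -4.61 (SE 0.95, limma adjusted p = 0.00398). At the detection limit it was -3.55 (adjusted p = 0.0105), against -3.60 for R and WKY. Of the mRNA probes 68.6% were called, 65.7% as lower in S, and 71.4% had no overlap, Cse1l among both. Cse1l kept this call in all 16 settings tried and without each of the 12 rats in turn. With normexp, the setting with the smallest size, the difference was -1.64 (adjusted p = 0.0494), against -1.98 for R and WKY. Because S and R, or SHR and WKY, serve in several of these comparisons, the comparisons are not independent of each other.

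For Med16 the SHR, WKY and R levels lay together, and S rats 1 and 3 lay above them. In S the Med16 level was -0.71 in rat 1, -2.85 in rat 2 and -1.11 in rat 3. In R it was -3.06, -2.36 and -1.94, and in SHR -2.56, -2.35 and -2.43, in rats 1, 2 and 3. In WKY it was -2.67, -2.09 and -2.90. S rat 2 fell within the range of R and of WKY, so that S overlapped each of these strains, and also spanned all SHR values.

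All 10 Med16 spots were well above background on each of the 12 arrays, and the SD over spots was 0.048 to 0.17 log2 units. Before scaling, Med16 spots had a median raw brightness of 84.8, 78.2 and 106 on S rats 1, 2 and 3. It was 70, 86.2 and 108 on R rats 1, 2 and 3, 70 to 73.5 on the WKY arrays and 67 to 92.2 on the SHR arrays. The high level of S rat 1 thus stands on an array whose 75th percentile was the lowest of all, at 6.22. The median processed Med16 signal was 46.1 on S rat 1 and 38.9 on S rat 2, where the percentile was 8.15. The levels of these 2 rats, -0.71 and -2.85, therefore differ mostly through the percentile subtracted. Whether that scaling suits Med16 on S rat 1 was not tested. Over all rats Med16 spanned 2.35 log2 units, or 5.09-fold.

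The Med16 strain means were -1.56 ± 1.14 (SD, n = 3) for S, -2.45 ± 0.10 for SHR, -2.45 ± 0.56 for R and -2.55 ± 0.42 for WKY. The SHR rats were within 0.21 log2 units of each other, unlike for Cse1l, where they spanned 4.19. The exact permutation test over the strains gave p = 0.273 for Med16 (Benjamini-Hochberg 0.273), and limma's moderated F an adjusted p of 0.338. Leaving out 1 rat at a time gave an exact p from 0.0193, without S rat 2, up to 0.792.

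No Med16 comparison of strains passed. The log2 difference was 0.89 in S against R (SE 0.56, 95% interval -0.31 to 2.10, limma adjusted p = 0.664) and 0.10 in SHR against WKY (interval -1.10 to 1.31, adjusted p = 0.934). It was 0.89 in S against SHR (interval -0.32 to 2.10, adjusted p = 0.169), where 42.9% of the mRNA probes were called in either direction. It was 0.098 in R against WKY (interval -1.11 to 1.31, adjusted p = 0.867), where 45.7% were called. R against WKY turned to -0.082 with normexp (adjusted p = 0.821) and to -0.078 on slide 1 alone (adjusted p = 0.907). With levels set against the median of the other mRNA probes it was 1.004 (adjusted p = 0.188), and SHR against WKY was 0.52 (adjusted p = 0.984). S against WKY gave 0.99 (interval -0.22 to 2.20, adjusted p = 0.133) and R against SHR -0.0064 (interval -1.21 to 1.20, adjusted p = 0.991). These intervals allow Med16 differences of more than 2-fold in either direction for the pairs without S.

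The S values of Med16 rest on how its rats are counted and on the scale. Without S rat 2 Med16 was higher in S than in SHR by 1.53 (limma adjusted p = 0.0257) and than in WKY by 1.64 (adjusted p = 0.0104), and S against R stood at 1.54 (adjusted p = 0.0800). In that fit 12 of the 35 mRNA probes were called in S against SHR and 22 in S against WKY. S and SHR shared no slide. With all rats, a limma fit that held slide constant gave 0.36 for Med16 in S against SHR (SE 1.06, adjusted p = 0.882). Without S rat 1, the dimmest array, Med16 stood at 0.46 in S against SHR (adjusted p = 0.476) and 0.57 in S against WKY (adjusted p = 0.421). Without S rat 3 it stood at 0.67 (adjusted p = 0.389) and 0.77 (adjusted p = 0.319). With levels set against the median of the other mRNA probes in place of the circRNA percentile, S against WKY was 2.06 (adjusted p = 0.0154) and S against SHR 1.54 (adjusted p = 0.0625). On that scale 14 of the 35 mRNA probes were called in S against WKY and 9 in S against SHR. Hypertensive minus normotensive strains gave 0.50 (SE 0.39, adjusted p = 0.568), and subtracting the SHR minus WKY difference from that of S minus R gave 0.79 (SE 0.79, adjusted p = 0.995).

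**Figure D3:**
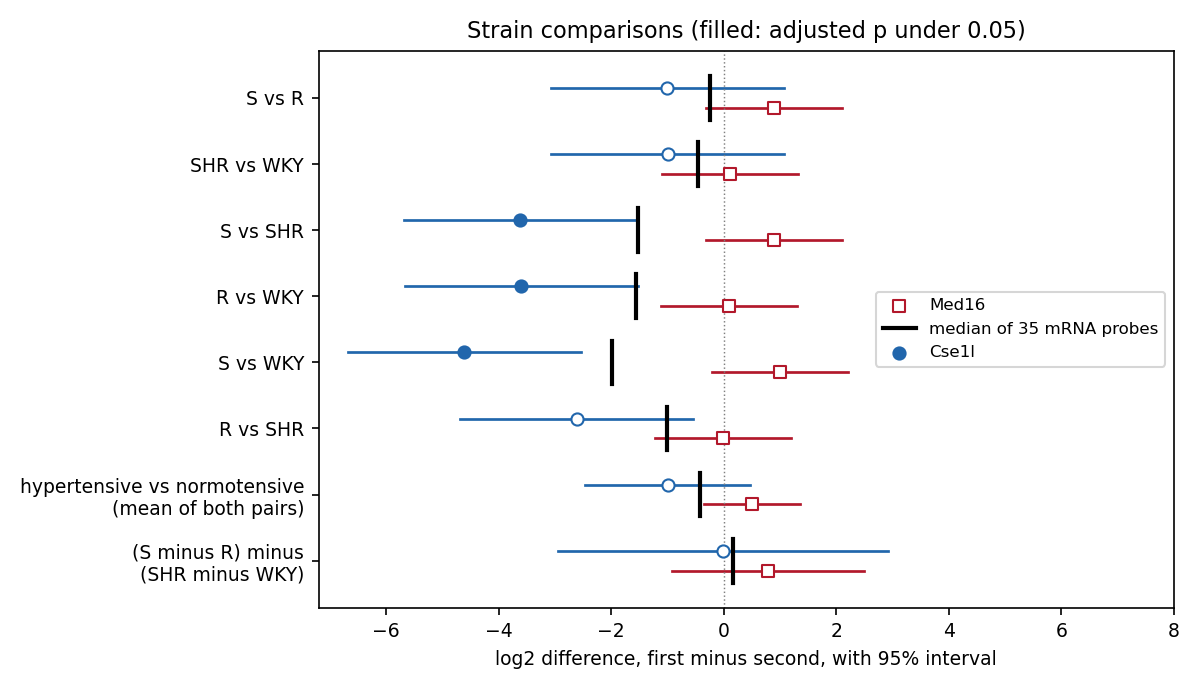
Log2 differences between strains for Cse1l (circles) and Med16 (squares) with 95% intervals from limma, filled where the adjusted p is under 0.05, and the median difference of the 35 tested mRNA probes as a black bar. Cse1l is called in S vs SHR, R vs WKY and S vs WKY (-3.62, -3.60 and -4.61), each beyond the median of the mRNA probes, and no Med16 interval leaves out 0.

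The pair of genes differed in how they varied over the strains, which are not balanced over the slides. The difference between the probes' log2 values within an array, which no scaling between arrays can change, differed between strains in the exact permutation test (p = 0.0175, Benjamini-Hochberg 0.0281). The sizes that involve S use Cse1l on S rats 1 and 3, where it was not well above background. From S to SHR the difference changed by -4.50 (SE 1.36, 8 degrees of freedom) and from R to WKY by -3.70 (SE 1.36), first minus second strain. From S to R it changed by -1.90 and from SHR to WKY by -1.10, each with an SE of 1.36. The permutation test does not hold slide constant, and S and SHR shared no slide. With slide held constant, S against SHR was -2.25 for Cse1l and 0.36 for Med16 (limma adjusted p = 0.563 and 0.882). The exact p was 0.0441 with normexp, 0.0262 at the detection limit, and 0.00344 to 0.0425 with 1 rat left out.

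The median level of the 33 other mRNA probes was highest in WKY, at -0.82 ± 0.44 (SD, n = 3), followed by SHR at -1.24 ± 0.58, R at -1.73 ± 0.12 and S at -1.89 ± 0.15. Array by array, the 5 arrays with a Cse1l level above -2 were also the 5 with the highest median of the other probes, WKY rats 1 to 3 and SHR rats 1 and 3. Measured against that median, Cse1l lay at 0.74 ± 0.86 in WKY, 0.17 ± 1.68 in SHR, -1.96 ± 0.52 in R and -2.80 ± 0.72 in S. The S values again include rats 1 and 3, close to background. On this scale Cse1l was lower in S than in SHR by -2.97 log2 units (SE 0.73, limma adjusted p = 0.0197) and in R than in WKY by -2.70 (adjusted p = 0.0293). In these comparisons 9 and 13 of the 35 mRNA probes were called on this scale. On the same scale Med16 lay at 0.33 ± 1.29 for S, -0.72 ± 0.67 for R, -1.20 ± 0.68 for SHR and -1.73 ± 0.35 for WKY. The median taken off has the opposite order of strains, with WKY highest and S lowest. WKY rats lay at -2.09 to -1.40 and S rats 1 to 3 at -1.13 to 1.31, whereas these strains overlapped on the circRNA scale. How many other probes had no overlap on this scale was not counted. On the circRNA scale 71.4% of the 35 mRNA probes had no overlap between S and WKY, so the separation is not read as particular to Med16.

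**Figure D4:**
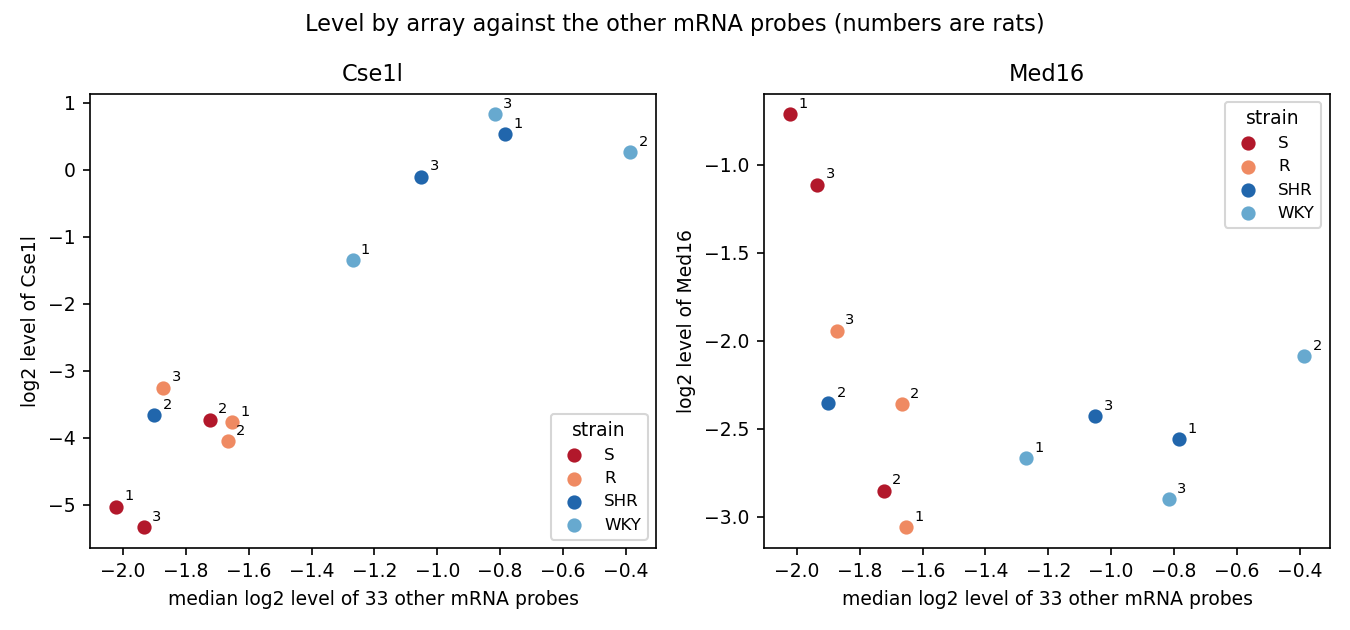
Level of Cse1l (left) and Med16 (right) on each array against the median level of the 33 other tested mRNA probes on that array, both in log2 units relative to the 75th percentile of the circRNA probes, coloured by strain and numbered by rat. For Cse1l, WKY rats 1 to 3 and SHR rats 1 and 3 sit at the upper right, and SHR rat 2 lies with S and R; for Med16 the highest arrays are S rats 1 and 3, at the left.

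The genes most like each member were found by the mean absolute difference between profiles over the 12 arrays, each profile centred on its own mean. Nearest to Cse1l were Pgk1, a glycolytic kinase (0.43 log2 units apart on average), Ldha, a subunit of lactate dehydrogenase (0.45), and Hprt1, a purine salvage enzyme (0.52). Hprt1 lay at -4.98 to -4.15 in S, under the detection limits of S rats 1 and 3 (-3.09 and -4.10). Its likeness to Cse1l on those arrays is thus between values close to background. Pgk1 had means of 2.08 ± 1.39 (SD, n = 3) for WKY, 1.41 ± 2.22 for SHR, -0.89 ± 0.60 for R and -1.34 ± 0.17 for S, and its lowest SHR rat was at -1.14 within a range up to 2.95. Ldha was read by a second probe as well, which stood 14th in likeness to Cse1l, at 1.20 log2 units. Both Ldha probes were lower in R than in WKY, by -3.78 for the nearer probe and -1.80 for the other (limma adjusted p = 0.0225 for each). In S against SHR they stood at -3.20 (adjusted p = 0.0445) and -0.99 (adjusted p = 0.142), so they differed in size and in that call.

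Nearest to Med16 were Ppp2r2b, a regulatory subunit of protein phosphatase 2A (0.44 log2 units apart on average), Nlrp3, a sensor protein of the inflammasome (0.49), and Pop7, a subunit of RNase P and RNase MRP (0.52). Their strain means moved little: Ppp2r2b lay between -1.08 ± 0.20 in WKY and -0.73 ± 0.60 in SHR, and Pop7 between -2.49 ± 0.15 in R and -1.98 ± 0.47 in SHR. None of these 3 passed in S against SHR or R against WKY (limma adjusted p of 0.626 to 0.731 and of 0.359 to 0.644). Nlrp3 lay at -4.08 to -3.41 in S, under the detection limit of S rat 1 (-3.09). The distance depends on the size of changes as well as their shape, so probes that vary little can lie near Med16. In S against SHR the log2 differences of Ppp2r2b, Nlrp3 and Pop7 were -0.23, 0.24 and -0.15, against 0.89 for Med16. Farthest from Med16 was Rplp1, at 2.77 log2 units, a probe that was 4th nearest to Cse1l, at 0.64.

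The rest of both pathways could not be followed on these arrays. Of 23 nuclear transport genes listed, which include importins, exportins and the Ran cycle, Cse1l alone had a named probe, and of 30 Mediator genes Med16 alone. In a list of common reference genes, 9 genes besides Cse1l were measured by 10 probes. Of these probes 5 were lower in S than in SHR and 7 were lower in R than in WKY, with 0 higher in either. Over all 35 mRNA probes 40.0% and 42.9% were lower. The median log2 differences of these reference probes were -1.72 and -2.41. The medians over all 35 mRNA probes were -1.53 and -1.56.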

How the data were processed

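Spot intensities were read by the authors with Agilent Feature Extraction 11.0.1.1, per the file headers, and the deposited processed signal intensities were used; how the background was taken off is not given in the sources used here. Limma stands in the submitters' processing notes, with no use given. The deposited value table holds circRNA probes alone and was not used. Here the log2 signals of a probe's 10 spots were averaged without spots bearing an outlier flag (3 of 120 for Cse1l, 8 of 120 for Med16; 0 were saturated), and the array's 75th percentile over circRNA probes was subtracted. Accessions named 39 of 62 mRNA probes through RefSeq (GRCr8); 35 had more than 50% of spots well above background on all arrays of a strain. These were fitted in limma 3.58.1 (R 4.3.3) with a mean per strain over all 12 arrays and tested with Benjamini-Hochberg adjustment within each contrast (threshold 0.05). Tested on simulated S vs SHR data with these 35 probes, the fit recovered 56% of changes of 2 log2 units and 95% of changes of 4. The simulated probes varied independently, each with 1 SD for all strains. In the data the SD of Cse1l was 0.41 in R and 2.26 in SHR, so these rates need not hold for it. The genes named beside Cse1l and Med16 were the 3 nearest to each in profile. The members, gene lists and tests were chosen with earlier results of these data known. Rats are separate animals, and the replicate numbers were not taken to pair them. The number of arrays limits the precision. Alternatives were other background corrections (normexp, offset 50), scalings, spot averages, probe sets, blocks and array sets, and leaving out each rat.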

Additional observations from a re-analysis of the deposited data

How the results depend on the processing

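Cse1l was lower in S than in WKY under all 16 alternatives (adjusted p up to 0.0494) and without each rat. The settings that moved other values follow, and the cause was not tested. With normexp, Cse1l was 0.33 in S vs R and -1.09 in S vs SHR, its exact p over the strains was 0.0730, Med16 in R vs WKY was -0.082, and 1 probe (S vs SHR) and 11 probes (S vs WKY) were called in place of 15 and 24. With values under the detection limit set to it (chosen after seeing the data), Cse1l was 0.051 in S vs R and -2.56 in S vs SHR, where 4 probes were called. With slide as a block, Cse1l was -2.25 in S vs SHR and -3.15 in R vs WKY, Med16 was -0.078 in R vs WKY (-0.078 also on slide 1 alone), and 0 probes were called in S vs SHR and 0 in R vs WKY, in place of 15 and 16. Scaled to the median of other mRNA probes, Med16 was 2.06 in S vs WKY and 0.48 in R vs SHR, and 9 (S vs SHR) and 14 (S vs WKY) probes were called. Med16 in R vs SHR was 0.13 with quantile normalization, 0.089 with the circRNA median and 0.0019 with the median over spots. Cse1l in S minus R against SHR minus WKY was 0.89 with normexp, 0.068 with quantile normalization, 0.054 with the circRNA median, 0.044 with mean linear signals, 1.04 at the detection limit and 0.90 with the slide block. Using all accession probes, 23, 33 and 39 were called in S vs SHR, R vs WKY and S vs WKY; using only the compared strains, 3 in S vs SHR; fitted with circRNA probes, Cse1l in R vs WKY stayed at -3.60 (adjusted p = 0.0645) and 2 probes were called there.

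Leaving out 1 rat at a time, Cse1l ranged from -4.91 to -2.81 in S vs SHR, -4.23 to -3.15 in R vs WKY, -1.80 to 0.30 in SHR vs WKY, -3.90 to -1.81 in R vs SHR and -1.30 to 0.79 in S minus R against SHR minus WKY. Med16 ranged from 0.46 to 1.53 in S vs SHR, 0.57 to 1.64 in S vs WKY, -0.071 to 0.34 in SHR vs WKY, -0.16 to 0.40 in R vs WKY and -0.26 to 0.30 in R vs SHR, with exact p over the strains of 0.0193 to 0.792. Called probes ranged from 0 to 1 in S vs R, 1 to 27 in S vs SHR, 0 to 23 in R vs WKY and 0 to 21 in R vs SHR. Replicate numbers were not taken to pair the rats. Deviations of 18 same-numbered pairs correlated at -0.87 to 0.56 over mRNA probes. Pairs with different numbers were not set beside them, so this range cannot decide whether the numbers pair the rats. With the replicate block, Cse1l kept its calls in S vs SHR (-3.62, adjusted p = 0.0402), R vs WKY (-3.60, adjusted p = 0.0432) and S vs WKY (-4.61, adjusted p = 0.0106), with 10, 13 and 22 probes called, and Med16 had none. Signal over background limits Cse1l on S rats 1 and 3, so the size of each difference that involves S, and the order of S and R, depend on how dim values are treated.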
